A study of Saccharomyces cerevisiae with 8 samples.

Results

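The response of wild-type budding yeast, Saccharomyces cerevisiae, to methyl methanesulfonate (MMS) was described from 4 of the 8 arrays of a series on yeast ageing, 2 of wild type grown with MMS and 2 of wild type grown without treatment, chosen by the sample descriptions. All cultures were in log phase, and total RNA of each was measured on a single-colour oligonucleotide array. The other 4 arrays, of an sgs1 null strain without and with MMS in the same way, entered the model and are used for comparison at the end. For strain background, mating type, MMS dose and length of exposure, nothing is given in the sources used here. The labels do not state whether the paired arrays of each group are from separate cultures, so p-values reflect only how far these samples spread, which may be a technical spread.

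MMS is an alkylating agent that adds methyl groups to the bases of DNA and also reacts with RNA, proteins and thiols. In yeast, damaged or stalled replication forks activate the kinases Mec1 and Rad53, which act through Dun1 to raise the supply of deoxynucleotides, while alkylated bases are removed by excision repair or bypassed. Alkylation of thiols draws on glutathione and on the transcription factor Yap1, and damaged proteins are degraded by the proteasome, whose genes are controlled by Rpn4.

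The arrays gave 7641 features, of which 5580 were genes with a single symbol. Levels are normalized intensities, which have no absolute unit and are compared only between arrays for the same gene, and every level below 97.1 was raised to that floor. The 2 untreated arrays differed from each other with an SD of 0.353 on the log2 scale over all features, and the 2 MMS arrays with an SD of 0.412. The deposited means of the 4 arrays lay between 1905.7 and 1999.7 and their medians between 775.1 and 947. On the log2 scale, the 3' over 5' signal of the actin control probe sets (YFL039C) was 0.83 and 0.88 untreated and 1.15 and 1.05 with MMS. That of the YER022w control probe sets was 1.87 and 2.27 untreated and 2.45 and 2.56 with MMS. These signs of RNA quality thus moved with the treatment in both control genes, whereas for YER148w the groups overlapped (1.25 and 1.58 against 1.43 and 1.49), and their part in the results was not tested.

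With MMS, 261 features rose and 224 fell in wild type (limma, adjusted p under 0.05 over all 7641 features), which is 3.42% and 2.93% of those tested, or 6.35% together. Of the 485, 388 were named genes, 219 higher and 169 lower. The median size of a called change was 1.32 on the log2 scale for rises and 1.28 for falls, and 39 features rose and 29 fell by more than 2. In 28 of the 485, 1 group lay at the floor on both arrays, so that their fold is a bound. Over all features the middle 50% of changes lay between -0.39 and 0.42 and the median was 0. The arrays were put on 1 scale, so a shift common to most genes would not show. In other settings the median ran from -0.0359 with median centring to 0.0253 without the dimmest 25% of features. Features that rose had a median level of 672 untreated and 1666 with MMS, and features that fell had 1656 and 580. Calls came from all levels, from 2.46% higher and 2.67% lower among the dimmest 25% of features to 3.87% and 2.56% among the brightest 25%.

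The number of calls rested on each wild-type array and on the arrays of the other strain. When untreated array 1 or 2 of wild type was left out, it was 4 or 0 (in the latter, 1342 features had an unadjusted p under 0.05). When MMS array 1 or 2 was left out, it was 5 or 6. It was 275 or 246 when an sgs1 null array was left out, and 0 in limma fitted to the 4 wild-type arrays alone, where an unadjusted p under 0.05 was reached by 1741 features. All 485 changes kept their direction in these 9 fits, which says little, since they were chosen on the same arrays.

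**Figure D1:**
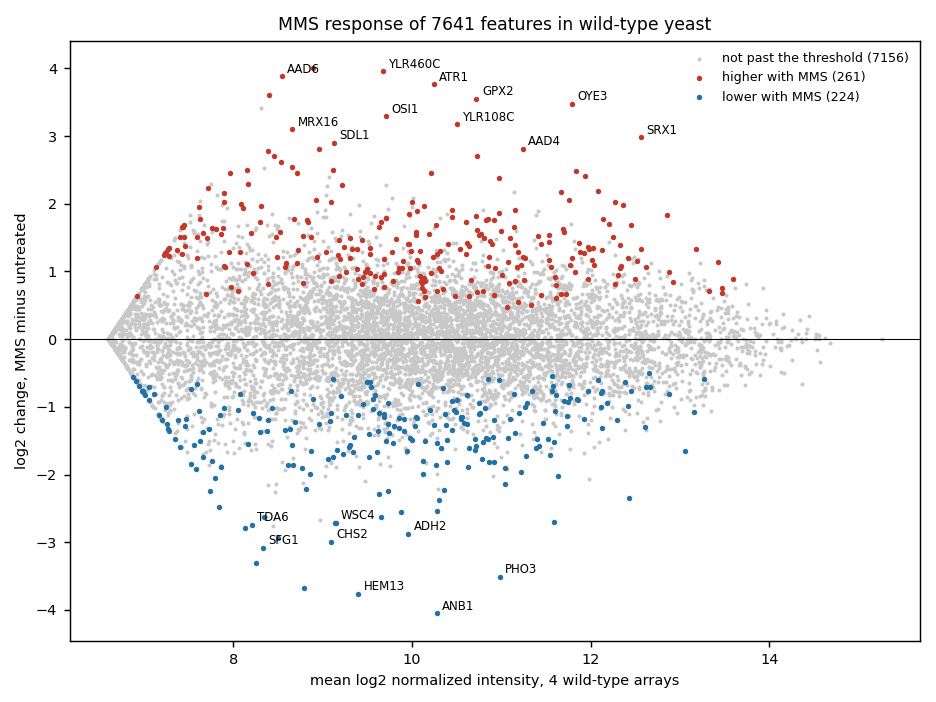
Change with MMS (log2, vertical axis) against the mean log2 level over the 4 wild-type arrays (horizontal axis), 1 point per feature, with the 261 higher features in red and the 224 lower in blue. Both colours run along the whole range of levels, and the slanting edges at the left are features with 1 group at the floor.

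The 20 largest rises among named genes ranged from YLR460C to RRG1, a gene of mitochondrial genome maintenance (2.29 ± 0.27). YLR460C, a member of an oxidoreductase family, had levels of 263 and 164 untreated and 2400 and 4329 with MMS, a change of 3.96 ± 0.40 (log2 ± SE, limma adjusted p = 0.0155). ATR1, a multidrug efflux pump, had 368 and 293 untreated and 4380 and 4539 with MMS, a rise of 3.76 ± 0.15 (limma adjusted p = 0.00422). AAD6, a putative aryl-alcohol dehydrogenase that R64 lists as a pseudogene, lay on the floor in both untreated arrays and reached 1818 and 1124 with MMS, so it was at least 14.7-fold higher, a bound that depends on the floor (2.77 on the log2 scale with a floor at the 20th percentile, against 3.88). In each of these the groups lay far apart, and replicates of a group were much closer to each other than to the other group. The genes were chosen for large changes without overlap between groups, so this separation was built into the choice.

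OSI1, named for its induction by oxidative stress, went from 366 and 195 to 2738 and 2505. RNA14, a subunit of the complex that cleaves and polyadenylates mRNA 3' ends, went from 249 and 141 to 1539 and 1122 (2.81 ± 0.42). KSS1, the MAP kinase of filamentous growth, went from 143 and 100 to 702 and 648 (2.49 ± 0.35). KSS1 started close to the floor, as did MRX16 (130 and 147) and YHK8 (143 and 113), so part of the largest rises are of genes with low untreated levels.

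Among the falls, ANB1, the translation factor gene of low oxygen, had levels of 4616 and 5518 untreated and 228 and 408 with MMS. PHO3, an acid phosphatase, went from 6876 and 6772 to 563 and 637, a fall of 3.51 ± 0.11 on the log2 scale (limma adjusted p = 0.00267). SFG1, a transcription factor of pseudohyphal growth, went from 844 and 1041 to 126 and the floor. All 3 genes stood clear of their untreated levels, which the choice of genes required, and the last is close to the limit of what the arrays could measure.

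YOX1, a homeodomain repressor of genes of the end of mitosis, went from 2685 and 3071 to 465 and 659 (-2.38 ± 0.42, limma adjusted p = 0.0433). HXT4, a glucose transporter, went from 2588 and 3470 to 582 and 456. HMS1, a helix-loop-helix transcription factor, went from 460 and 468 to the floor on 1 array and 99.2 on the other. The falls thus took in regulators of transcription as well as enzymes and transporters.

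**Figure D2:**
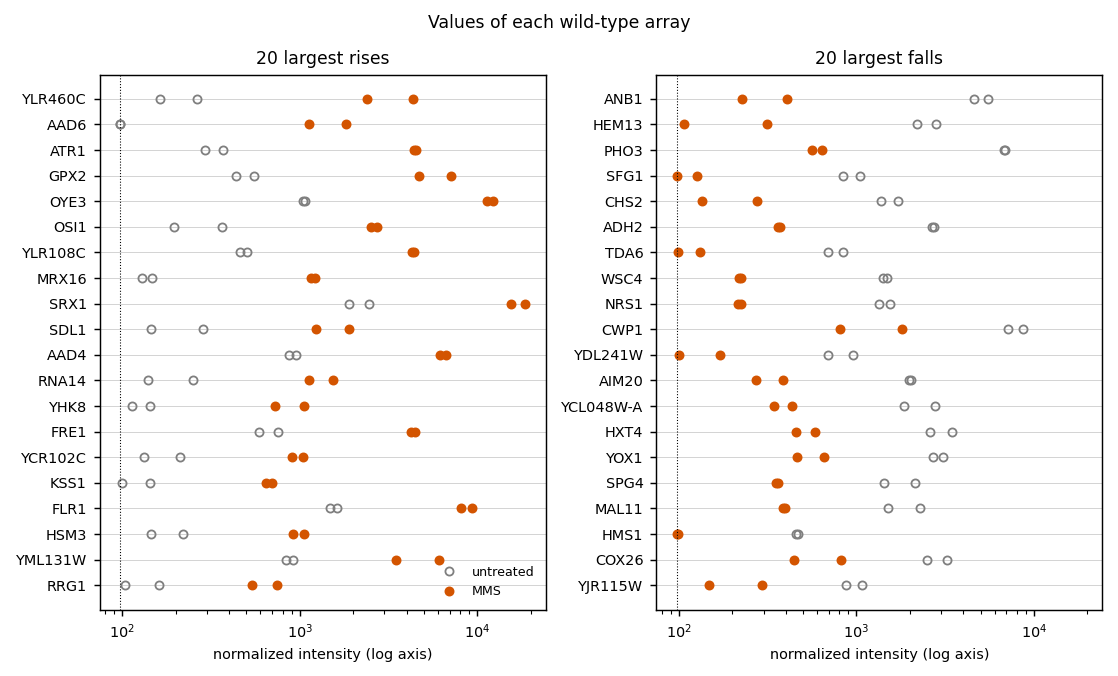
Normalized intensity of each wild-type array (log axis) for the 20 named genes with the largest rises (left) and the 20 with the largest falls (right), open circles untreated, filled circles MMS, dotted line at the floor of 97.1. No gene has overlapping groups, which the rule for choosing them required, and AAD6 sits on the floor when untreated.

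Changes are also given for 51 lists of genes by function, of which 1047 genes were measured. Each list is described by its counts and its median, to be set beside 3.42% higher, 2.93% lower and a median of 0 over all features. Over named genes alone, from which the lists are drawn, the shares were 3.92% and 3.03%. The lists were chosen with earlier results of these data known, so these comparisons are a description only.

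Redox defence changed in part. Of 29 genes linked to Yap1 and to thiol redox control, 12 rose, 0 fell and 17 missed the threshold (median 0.81). YAP1, the transcription factor itself, had levels of 842 and 951 untreated and 2857 and 3474 with MMS, a rise of 1.82 ± 0.17 (limma adjusted p = 0.0146). GPX2, a thiol peroxidase, went from 556 and 439 to 7102 and 4685 (3.55 ± 0.26). SRX1, sulfiredoxin, which repairs oxidized peroxiredoxin, went from 1883 and 2450 to 15414 and 18662. In all 3 the MMS arrays lay well above both untreated arrays.

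In glutathione use, GSH1, the enzyme of the first step of synthesis, rose by 1.44 ± 0.26, GLR1, glutathione reductase, by 1.09 ± 0.14, and GTT2, a glutathione transferase, by 2.18 ± 0.17. YCF1, which pumps glutathione conjugates into the vacuole, rose by 1.91 ± 0.13. TRR1, thioredoxin reductase, was among the brightest genes that rose, from 7611 and 7252 to 17290 and 15521. OYE3, an old yellow enzyme that reduces unsaturated carbonyl compounds, went from 1068 and 1047 to 11345 and 12251. Its relative OYE2 went from 8865 and 9286 to 18787 and 15030 and is counted among the 12, but it passed in none of the 16 other settings (adjusted p from 0.0502 to 0.352).

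The members that did not pass included thioredoxin, peroxiredoxin, catalase and superoxide dismutase genes. TRX2, a thioredoxin, changed by 0.81, TSA1, the main peroxiredoxin, by 0.37 and AHP1, another one, by 0.52. CTT1, the cytosolic catalase, had 2388 and 4168 untreated and 1296 and 2670 with MMS (-0.76 ± 0.74), and its groups overlapped. SOD1 changed by 0.23 and SOD2 by 0.26. The median of this list was 0.44 with median centring of the arrays.

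Among drug transporters the response was uneven. FLR1, an efflux pump of the same superfamily as ATR1, rose by 2.49 ± 0.22, from 1474 and 1622 to 8045 and 9349. Of 22 other listed efflux transporters and their regulators, 0 rose and 0 fell, and their median of -0.08 turned positive in 3 of the 16 other settings. The list does not hold all such genes. ATR1, FLR1 and YCF1, which rose, were counted with the Yap1 genes, and YHK8, which rose by 2.78 ± 0.23, was not in it either. The 0 of 22 thus depends on how the lists were drawn. PDR5, the main efflux pump of the pleiotropic drug response, changed by -0.60 and SNQ2 by 1.04, neither past the threshold. Of 7 aryl-alcohol dehydrogenase genes, 4 were measured by probe sets with a single symbol. AAD4 rose by 2.81 ± 0.09 and AAD6 rose too, whereas AAD10 fell by 1.18 ± 0.19 and AAD14 changed by -0.89 without passing. Members of this family are similar in sequence, so their probe sets may share signal.

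Genes of protein degradation had many moderate rises. Of 19 genes of the proteasome's 19S regulator, 9 rose, 0 fell and 10 missed the threshold, the median was 1.01, and all 19 changes were positive. RPN6 went from 3764 and 3488 to 8336 and 8273, a rise of 1.20 ± 0.09 (limma adjusted p = 0.00959). RPT3, an ATPase of the base, went from 1805 and 2030 to 5579 and 5919. RPT2 had 2452 and 1546 untreated and 7900 and 5023 with MMS, and at 1.69 ± 0.33 it did not pass (limma adjusted p = 0.0536).

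Of 14 genes of the 20S core, 2 rose, 0 fell and 12 missed the threshold, their median being 0.77, and all 14 positive. PRE8 went from 9261 and 8273 to 14548 and 14890. The changes of the core genes lay between 0.44 and 1.33, narrower than those of the regulator, which lay between 0.11 and 1.69. The difference between the 2 lists was not tested.

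Of 25 genes of proteasome assembly, Cdc48 and ubiquitin, 6 rose, 0 fell and 19 missed the threshold (median 0.72). RPN4, the activator of proteasome genes, rose by 1.29 ± 0.15, from 2476 and 2346 to 5319 and 6564. HSM3, a chaperone for assembly of the regulator base, went from 146 and 219 to 1054 and 912. The cofactors of Cdc48, NPL4 and UFD1, rose by 1.87 ± 0.21 and 1.65 ± 0.11. UBI4, the polyubiquitin gene, rose by 0.72 ± 0.08 from an already high level of 8162 and 7815. All 3 of these lists kept a positive median in the 16 other settings, but several of those settings leave the wild-type changes as they are. The lowest medians, each with median centring, were 0.79 for the regulator, 0.52 for the core and 0.53 for this list.

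Of 25 cytosolic and nuclear chaperones, 1 rose, 1 fell and 23 did not pass. AHA1, a cochaperone of Hsp90, rose by 1.05 ± 0.18 and SSZ1, a chaperone at the ribosome, fell by 0.77 ± 0.10. The median of 0.09 turned to -0.28 with median centring. Of 18 general stress genes, 0 rose, 1 fell and 17 did not pass, and the median was -0.51. HSP12, the membrane-associated small heat shock protein, had the highest change of these 18, 0.08, and the lowest was -2.76. MSN4, a transcription factor of general stress, fell by 1.26 ± 0.16.

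The DNA damage genes showed few calls among many positive values. The list of 18 checkpoint genes also holds DDI1 and DDR48, which are not genes of checkpoint signalling. Of the 18, 2 rose, 0 fell and 16 missed the threshold. The 2 were DUN1 and DDI1, so DUN1 was the only checkpoint gene called. The median of 0.70 was 0.45 without the second untreated array. DUN1, the effector kinase, went from 783 and 637 to 1558 and 1630 (1.17 ± 0.15, limma adjusted p = 0.0236). DDI1, which is inducible by damage and shuttles ubiquitinated proteins, went from 1555 and 1854 to 6295 and 7827. MEC1 changed by -0.24, RAD53 by 0.75 and RAD9 by 1.35, none past the threshold.

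In ribonucleotide reductase, RNR1, the large subunit, rose by 1.42 ± 0.22, from 875 and 1055 to 2184 and 3045. RNR3, the inducible large subunit, had 225 and 517 untreated and 1216 and 1510 with MMS. Its groups did not overlap but its untreated arrays were more than 2-fold apart, and 1.99 ± 0.44 did not pass (limma adjusted p = 0.0678). RNR2 and RNR4, the small subunits, were already at 7737 and 8509 and at 10459 and 10066 untreated and changed by 0.43 ± 0.18 and 0.42 ± 0.11.

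In repair, 4 of 18 nucleotide excision repair genes rose, 0 fell and 14 did not pass. SSL2, the helicase of the transcription and repair factor TFIIH, went from 418 and 482 to 1495 and 1626. RAD4, RAD2 and RAD7 rose by 0.98, 0.73 and 0.54, and RAD7 passed in 2 of the 16 other settings (adjusted p from 0.0341 to 0.212). Of 6 measured mismatch repair genes, PMS1 rose by 1.94 ± 0.25, from 171 and 115 to 531 and 549, while MSH6 (1.36 ± 0.26, limma adjusted p = 0.0524) and MSH3 (1.22 ± 0.34) did not pass. Without the dimmest 25% of features, which leaves out part of this list, its median fell from 0.61 to 0.01.

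Of 19 recombination genes, RAD54 was the only one called, going from 592 and 468 to 1756 and 2043 (1.85 ± 0.18). RAD52 changed by 0.18 and RAD50 by 0.24. Of 12 genes of alkylation and base excision repair, 0 passed in either direction. MAG1, the glycosylase that removes alkylated bases, had 957 and 816 untreated and 2783 and 1990 with MMS, and at 1.41 ± 0.33 it did not pass (limma adjusted p = 0.0756). MGT1, the methyltransferase that repairs alkylated guanine, changed by -0.15 ± 0.37.

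In bypass of damage, 0 of 9 genes rose and MMS2, a ubiquitin-conjugating enzyme variant of the error-free branch, fell by 0.82 ± 0.12. RAD30, the gene of polymerase eta, changed by 1.09 ± 0.24 and did not pass. Of 47 replication genes, 6 rose, 0 fell and 41 missed the threshold (median 0.43). Replication protein A was represented among them by RFA1 (1.35 ± 0.12) and RFA2 (1.10 ± 0.11). SLD2, needed to activate the replicative helicase, went from 158 and 97.7 to 355 and 349, and PSF1, a subunit of the GINS complex of that helicase, rose by 1.00 ± 0.15.

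Metal supply rose in part. Of 28 genes of iron uptake and the iron regulon, 5 rose, 1 fell and 22 missed the threshold (median 0.75). FRE1, a ferric and cupric reductase, went from 752 and 592 to 4428 and 4241 (2.70 ± 0.19). ISU2, the scaffold on which iron-sulfur clusters are built, went from 4022 and 3825 to 14129 and 13842. FTR1, the permease of high-affinity uptake, rose by 1.28 ± 0.11 and SIT1, a siderophore transporter, by 1.20 ± 0.18.

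FET4, a transporter of low affinity for iron, went the other way, from 2105 and 2043 to 630 and 569. CTR1, the copper transporter, rose by 1.89 ± 0.23 and was the only call among 14 genes of zinc and copper.

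Genes of the hypoxic programme, which are repressed by Rox1 when haem and oxygen are plentiful, were the list with the lowest median of the 51, -1.09. Of its 20 genes 0 rose, 6 fell and 14 did not pass. HEM13, an enzyme of haem synthesis, went from 2203 and 2800 to 107 and 312 (-3.76 ± 0.64). TIR1, a cell wall mannoprotein, went from 4906 and 8424 to 1382 and 1797, and AAC3, the ADP/ATP carrier of low oxygen, from 920 and 921 to 212 and 255. CYC7, the low-oxygen cytochrome c, fell by 1.72 ± 0.28.

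DAN1, a mannoprotein of anaerobic cells, went from 353 and 345 to the floor on both MMS arrays and was at least 3.59-fold lower. This bound depends on the floor, and with a floor at the 20th percentile the change was -0.73 on the log2 scale. COX5B changed by -1.56 ± 0.37 and TIR3 by -1.91 ± 0.39, and neither passed. ROX1 had 455 and 764 untreated and 832 and 1433 with MMS, a change of 0.89 ± 0.49 that did not pass (limma adjusted p = 0.354). ERG11 and HEM14, placed in the same list, changed by -0.13 and -0.01, so the list did not move as a whole.

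Among cell cycle genes, the CLB2 cluster, transcribed from G2 into mitosis, stood lowest. Of its 23 genes 1 rose, 8 fell and 14 did not pass, and the median was -1.06. CHS2, the chitin synthase of the primary septum, went from 1380 and 1706 to 136 and 274. ALK1, a mitotic kinase, went from 1212 and 979 to 368 and 369, and SPO12, of mitotic exit, fell by 1.28 ± 0.12. The cyclin CLB1 fell by 0.84 ± 0.15 and CLB2, at 543 and 323 untreated and 133 and 240 with MMS, changed by -1.23 ± 0.54 and did not pass.

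ASE1, a spindle midzone protein, was the member that rose (1.04 ± 0.13). Of 25 genes of G1 and S phase 2 rose, RNR1 and the cohesin gene SMC1 (0.97 ± 0.13), and 0 fell. Of 20 genes of daughter cells and early G1, 1 fell, the cyclin PCL9 (-1.69 ± 0.31). Among 5 measured histone genes, HTB2 fell by 2.14 ± 0.27, from 4038 and 4868 to 893 and 1128, while HTB1, which encodes a nearly identical histone H2B, changed by 0.07 ± 0.20 at 8395 and 8600 untreated. In a bulk culture, a lower share of cells in a cycle phase and less RNA per cell cannot be told apart.

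**Figure D3:**
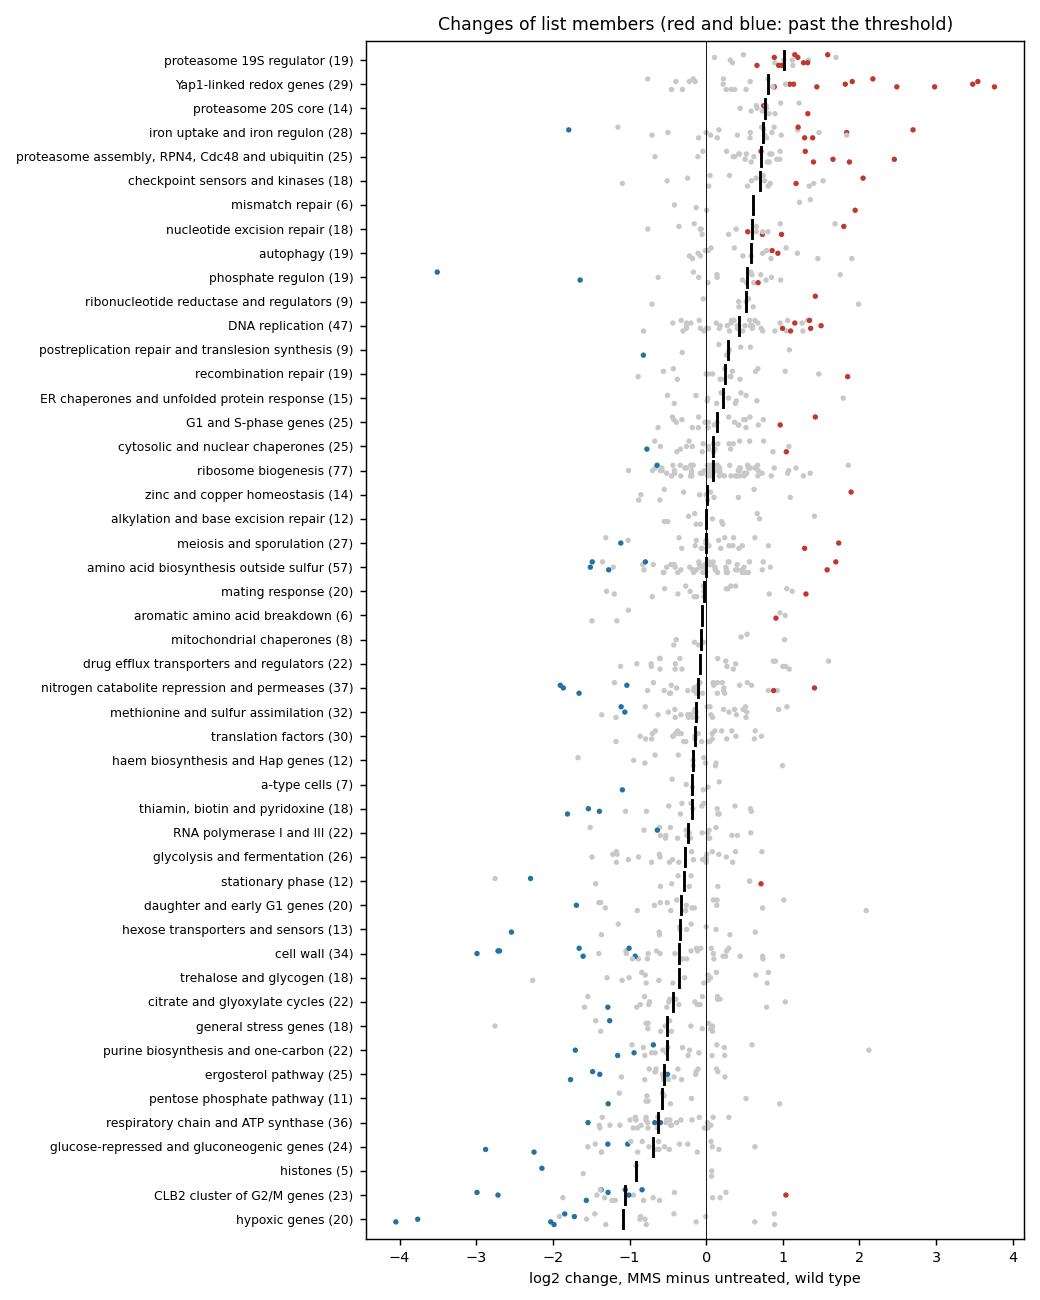
Changes with MMS in wild type (log2, horizontal axis) of the measured members of the lists with at least 5 of them, 1 point per gene, red and blue for members past the threshold, black bars for list medians, number of measured genes in brackets. Lists are ordered by median, from the proteasome regulator at 1.01 to the hypoxic genes at -1.09.

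Genes of respiration and of growth on other carbon sources were lower where called. Among 36 genes for respiratory complexes and ATP synthase, 0 rose, 3 fell and 33 missed the threshold (median -0.63). CYT1, cytochrome c1, went from 1946 and 2313 to 691 and 769, while COR1 and ATP15 fell by 0.67 ± 0.10 and 0.60 ± 0.10. Of 24 measured glucose-repressed genes, 0 rose, 4 fell and 20 missed the threshold (median -0.70). ADH2, the alcohol dehydrogenase for ethanol use, went from 2735 and 2652 to 362 and 370.

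MAL11, an alpha-glucoside transporter, went from 2293 and 1503 to 387 and 396, and ICL1, isocitrate lyase, fell by 1.28 ± 0.21. SPG4, a gene of stationary phase, went from 2133 and 1435 to 364 and 351. Of 12 genes of stationary phase, 1 rose, UBI4, 1 fell, SPG4, and 10 did not pass, with 4 positive and 8 negative values and a median of -0.29. The summed level of 7 of them used as markers moved with these groups, from 8265 and 7167 untreated to 4747 and 3749 with MMS, 1 of those 7 fell and none of them was at the floor on all 4 arrays. The part of growth phase in these results was not tested. Of 26 genes of glycolysis and fermentation, 0 passed in either direction, with a median of -0.27.

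Cell wall and sterol genes were lower where called. Of 34 cell wall genes, 0 rose, 7 fell and 27 missed the threshold. The median of -0.36 was -0.13 without the first MMS array and -0.61 with median centring. TIP1, a mannoprotein, was the brightest gene that fell, from 14637 and 15521 to 3926 and 5816. CWP1 went from 7180 and 8622 to 812 and 1815, and GAS3, of a family of glucan transferases, fell by 1.61 ± 0.22. Of 25 ergosterol genes, 0 rose, 4 fell and 21 missed the threshold (median -0.55). ERG5, a late enzyme of the pathway, went from 3125 and 3384 to 839 and 1083, and ERG28, a scaffold of its enzymes, fell by 1.39 ± 0.10. Other bright genes that fell were ADK1, adenylate kinase, from 13508 and 13148 to 5715 and 6945, and STF1, which stabilises the inhibited state of ATP synthase, from 9084 and 10503 to 3758 and 4229.

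Nutrient uptake and synthesis changed gene by gene. Of 37 genes of nitrogen catabolite repression and amino acid permeases, 2 rose, 4 fell and 31 did not pass. GAP1, the general amino acid permease, went from 4246 and 3920 to 983 and 1210. PTR2, a peptide transporter, and MEP2, an ammonium permease, fell by 1.86 ± 0.35 and 1.66 ± 0.17, and BAP2, a permease of branched-chain amino acids, rose by 1.41 ± 0.16. GCN4, the activator of amino acid synthesis, had 8906 and 9156 untreated and 11190 and 12848 with MMS and did not pass (0.41 ± 0.09, limma adjusted p = 0.0726).

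Of 57 measured genes of amino acid synthesis outside sulfur, 2 rose and 4 fell. In the lysine pathway, LYS20, homocitrate synthase of its first step, went from 2553 and 3780 to 9286 and 10850, while LYS9 and LYS4, later steps, fell by 1.51 ± 0.21 and 1.27 ± 0.15. Members of this pathway thus went in opposite directions. Of 22 purine and one-carbon genes, 0 rose, 4 fell and 18 did not pass, and the 4 were those of the guanine branch. IMD4, IMD2 and IMD3, genes of IMP dehydrogenase, fell by 1.71, 1.15 and 0.94, and GUA1, GMP synthetase, by 0.69. IMD3 passed in 3 of the 16 other settings (adjusted p from 0.0257 to 0.142). The probe sets of IMD2 and IMD3 are of a kind shared within a gene family, so their signals may not be separate.

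BIO2, BIO3 and BIO4, of biotin synthesis, fell by 1.81 ± 0.28, 1.39 ± 0.22 and 1.54 ± 0.15 and were the only calls among 18 vitamin genes. In the phosphate regulon 1 of 19 genes rose and 2 fell, which were the acid phosphatase genes PHO3 and PHO5 (-1.64 ± 0.19). PHO84, the high-affinity phosphate transporter, rose by 0.68 ± 0.10, from 9406 and 8574 to 14054 and 14697, and passed in 3 of the 16 other settings (adjusted p from 0.0257 to 0.274). Of 77 ribosome biogenesis genes 0 rose, 1 fell and 76 did not pass.

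In the remaining lists calls were few. ATG11, a scaffold of selective autophagy, and ATG3, of the lipid conjugation of Atg8, rose by 0.94 ± 0.08 and 0.86 ± 0.13 among 19 autophagy genes, with 0 lower and a median of 0.59. Of 32 genes of methionine and sulfur assimilation, 0 rose and 2 fell, MET3, ATP sulfurylase, by 1.11 ± 0.18 and HOM2 by 1.06 ± 0.14. Of 20 genes of the mating response, GPA1, the alpha subunit of its G protein, rose by 1.30 ± 0.18 and 0 fell. Of 15 genes of endoplasmic reticulum chaperones, of 30 translation factors and of 18 genes of trehalose and glycogen, 0 rose and 0 fell, and the median of the last, -0.36, was 0.13 without the first MMS array.

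Markers of cell types were examined as well. STE2, the receptor of a cells, had levels above the floor (1747 and 1808 untreated, 1574 and 1907 with MMS). So did the alpha-cell gene SAG1 (1136 and 1758 untreated, 911 and 1625 with MMS). Levels are not compared between genes, so the mating type, which the labels leave out, was not determined here. Of 7 a-type markers, AGA2, an adhesion subunit, fell by 1.09 ± 0.15, and the summed level was 19372 and 19062 untreated and 14916 and 15759 with MMS. Of 4 alpha-type markers 0 passed in either direction. Their summed level was 2121 and 2514 untreated and 1665 and 2284 with MMS, more of it from SAG1 than from the other markers together. Of 27 measured genes of meiosis and sporulation, 2 rose, 1 fell and 24 did not pass, which is 11.1% against 6.35% of all features, with a median of 0. SPS100, of spore wall maturation, rose by 1.73 ± 0.27 and CRR1 by 1.28 ± 0.07, while RED1, of the meiotic chromosome axis, fell by 1.11 ± 0.11. Of the 9 measured meiotic markers, the early and middle genes such as IME1 and NDT80, 0 passed. The sums of the meiotic markers were 2519 and 2855 untreated and 2385 and 2330 with MMS, and SPO13 was at the floor on all 4 arrays.

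Neighbouring genes were compared in the gene order of assembly R64, since an intergenic stretch can serve a pair of divergent genes. Of the 4986 neighbouring pairs with both genes measured, 14 pairs rose together, 3 fell together and 13 had opposite calls. Of 387 neighbours of genes that rose, 7.24% rose, against 3.92% of all named genes, and 3.36% fell, against 3.03%. Of 284 neighbours of genes that fell, 2.11% fell, against the same 3.03%. By arrangement, 11% of 91 divergent, 7.73% of 181 tandem and 3.74% of 107 convergent neighbours of genes that rose had risen. No test was made of these shares, and signals of adjacent genes may not be independent.

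The divergent pairs that rose together included SRX1 with CYT2 (2.98 and 1.21), FRE1 with the spore wall gene CRR1 (2.70 and 1.28) and RNA14 with SAM37 of mitochondrial protein import (2.81 and 1.19). DUN1 was followed by GET3 and BUG1, which rose by 0.89 and 0.60. BIO3 and BIO4 were a divergent pair that fell together. The pair UFD1 and SCM4 showed opposite calls, 1.65 and -1.74, at tandem positions.

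The response of the sgs1 null strain to MMS, measured on the other 4 arrays, had the same direction for most of these features. SGS1 encodes a RecQ-family DNA helicase. Its level in wild type was 475 and 882 untreated and 354 and 546 with MMS, and the groups overlapped. Of the 261 features that rose in wild type, 97.3% had a positive change in the null strain, and of the 224 that fell 96.9% had a negative one. Over all features 69.9% had the same sign. That share includes features at the floor on all 4 wild-type arrays, whose sign in wild type carries no information. They were 16% of features with no symbol and 0.737% of those with a standard name. The median change of the 261 was 1.32 in wild type and 0.93 in the null strain, and that of the 224 was -1.28 and -0.84. Since the features were chosen for their change in wild type, a smaller value in the other strain is built into the choice.

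In the same model 157 features passed in both strains in the same direction, 32.4% of the 485 of wild type and 81.8% of the 192 of the null strain, where 2.51% of all features passed. Both tests share 1 estimate of the spread. The difference between the responses was tested directly, and 0 of 7641 features passed (0%, limma adjusted p under 0.05), with 363 under an unadjusted p of 0.05, 1 feature passing with a floor at the 20th percentile and 3 with an intensity trend in limma's prior.

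The 5 named genes with the smallest p for the difference show its size. ATR1 rose by 3.76 in wild type and 2.17 in the null strain, a difference of -1.60 ± 0.22 (limma adjusted p = 0.812). GAP1 changed by -1.90 and -0.09, a difference of 1.81 ± 0.20 (limma adjusted p = 0.749). HXT1, a low-affinity glucose transporter, changed by 0.64 and -0.69, and MYG1 by -0.42 and 0.39. DAN1 changed by -1.85 and -0.91, with the floor reached in wild type. In the CLB2 cluster the list median was -1.06 in wild type and -0.31 in the null strain, with 0 of its genes past the threshold for the difference.

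**Figure D4:**
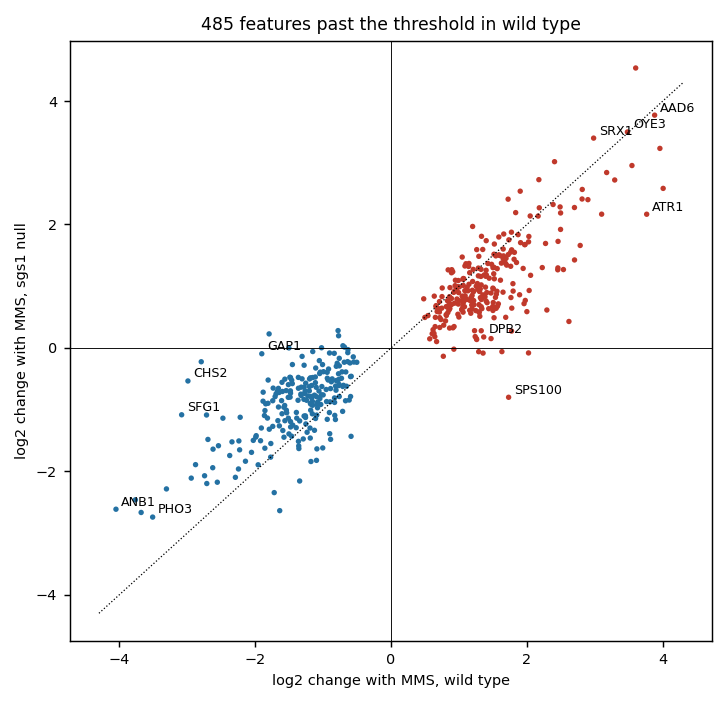
Change with MMS (log2) in the sgs1 null strain (vertical axis) against that in wild type (horizontal axis) for the 485 features past the threshold in wild type, red higher and blue lower, dotted line for equal changes. Most points share the sign of both axes, and SPS100 is 1 of the 7 higher features with a negative value in the null strain.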

How the data were processed

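The authors deposited linear intensities, 1 value for each probe set on each array. No software, scaling target or background correction is given in the sources used here, and the labels name no scan or hybridisation batch. The number of arrays, 2 per group, limits the precision. Of 8363 probe sets, 32 controls and 1 with a missing value were left out. Gene symbols came from the platform annotation (6269 probe sets with 1 symbol, 309 with several, 1752 with none, the latter kinds tested but never named). Symbols were checked against RefSeq assembly R64, and 0 needed updating. The 8 arrays were quantile normalized, values below the 10th percentile of positive values (97.1) were raised to it, log2 was taken, and probe sets of a gene were averaged (291 genes). With R 4.3.3, limma 3.58.1 (eBayes without trend) fitted 4 group means, with 4 residual and 0.986 prior degrees of freedom, two-sided, with Benjamini-Hochberg adjustment over 7641 features. Only the model fit was tested on simulated log2 values, with changes given to features well above the floor. Normalization, floor and averaging of probe sets were not part of that test.

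The processing, the gene lists and the members were chosen with earlier results of these data known. Genes were named by a rule: the 20 largest rises and 20 largest falls past the threshold without overlap, the 5 brightest in each direction, up to 4 past the threshold per list, 5 by the strain difference, and a set of damage-response genes. List members that did not pass are named with values to account for a list. Genes beyond the rule were chosen after their values were seen: GSH1, GLR1, GTT2, YCF1, RFA2, PSF1, FTR1, SIT1, CYC7, SPO12, CLB1, ASE1, GAS3, LYS4, the partners in neighbouring pairs and those in the closing section. Promoter sequences were not used here.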

Additional observations from a re-analysis of the deposited data

How the results depend on the processing

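Alternatives were median centring, the deposited scale, a floor at the 20th percentile, raising only values at or below 0, leaving out the dimmest 25% of features, the 4 wild-type arrays alone, an intensity trend in limma's prior, a replicate block and leaving out each array. Against 485 features past the threshold for MMS in wild type, 261 higher and 224 lower, median centring gave 546 (237 higher, 309 lower), the deposited scale 511 (311 and 200), the 20th percentile floor 420, raising only values at or below 0 388, leaving out the dimmest features 422 and the trend 415. The share of higher calls thus moved from 53.8% to 43.4% with median centring and 60.9% at the deposited scale.

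The wild-type arrays alone gave 0 calls, 0 higher and 0 lower. Without 1 array the counts ran from 0 to 275 in all, from 0 to 150 higher and from 0 to 125 lower, and the fits without a wild-type array kept 3, 0, 4 and 6 of the 485. AAD4, AAD6, ATR1 and PHO3 were the named genes that passed in any fit without a wild-type array. The labels mark the second array of each group as a repeat without saying what it shares. Deviations of same-marked arrays correlated at 0.543 between the wild-type groups and at 0.667 between the MMS groups of both strains. Those of sgs1 null untreated with each MMS group were -0.0751 and -0.0621, and the remaining pairs gave 0.203 and 0.359. The mark may thus stand for something that some arrays share, and the main model leaves it out. Whether it is a pairing or a batch was not tested. The replicate block on this mark gave 935 features past the threshold, 493 higher and 442 lower, among them 467 of the 485. With this block OYE2, PCL9 and SOL3 did not pass (adjusted p = 0.0512, 0.0545 and 0.0535), while RNR3, ROX1, GCN4 and HXT1 passed (adjusted p = 0.0454, 0.0313, 0.0497 and 0.0344), as did AAD14, COX5B, PDR5, RPT2, SNQ2, TRX2 and TSA1.

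The test of the difference between the strains gave 0 features, 1 with the 20th percentile floor, 3 with the trend and 0 in each fit without 1 array. Of 165 genes past the threshold that were followed singly, those named in the text among them, 0 had the opposite direction in any setting. This says little. The wild-type groups of all 485 features did not overlap, so leaving out 1 array could not turn a direction. Several other settings used the same log2 values and so returned the same wild-type change. With the floor at the 20th percentile, 474 of the 485 features kept their direction and 11 had both groups at the floor. Besides OYE2, which passed in no other setting, BUG1, CLB1, ERG20, IMD3, PCL9, PHO84, RAD7, RIO1 and SOL3 passed in at most 3 of 16. What depth limits is the dim end: 8.86% of wild-type values lay at the floor, where no change can be measured.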

Other observations

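The gene groups here were put together after the changes had been seen, so their counts are a description only and carry no test.

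Genes that assemble iron-sulfur clusters in the cytosol and carry them to target proteins were among the rises. Of 11 such genes 5 rose, 0 fell and 6 did not pass. LTO1, which helps to deliver a cluster to the ribosome recycling factor Rli1, went from 246 and 298 to 1367 and 1255 (2.27 ± 0.22, limma adjusted p = 0.0146). TAH18, the reductase that feeds electrons to the pathway, went from 673 and 477 to 2409 and 2054. NBP35 and CFD1, which form the scaffold, rose by 1.52 ± 0.28 and 1.20 ± 0.17, and NAR1, which acts after it, went from 880 and 870 to 1820 and 1797. DRE2, the partner of TAH18, changed by 1.08 ± 0.25 and did not pass, and RLI1 itself changed by -0.82 ± 0.19. In mitochondria, 2 of 16 assembly genes rose, ISU2 and ISA2 (0.72 ± 0.11).

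FZF1, the activator of the sulfite pump gene SSU1, rose together with genes that deal with small reactive molecules. FZF1 went from 630 and 605 to 1535 and 1726 (1.40 ± 0.09) and SSU1 from 1865 and 2209 to 8939 and 9490 (2.18 ± 0.12). YHB1, flavohaemoglobin, which detoxifies nitric oxide, went from 1169 and 1190 to 4536 and 4278. SFA1, the glutathione-dependent formaldehyde dehydrogenase, rose by 1.16 ± 0.13. In the sgs1 null strain the changes of these 4 genes were 1.26, 2.27, 2.54 and 0.77.

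Of 7 genes of telomerase and its partners, TLC1, the telomerase RNA, fell from 502 and 409 to 111 and 108 (-2.05 ± 0.19, limma adjusted p = 0.0146), close to the floor. The 6 protein genes did not pass and changed by between 0.03 and 0.29. In pyrimidine metabolism 3 of 13 genes fell. FUR1, of uracil salvage, changed by -1.45 ± 0.15, the uridylate kinase gene URA6 by -1.31 ± 0.16 and the uracil permease gene FUR4 by -1.05 ± 0.18. Of 14 regulators of cell cycle transcription 1 rose, 3 fell and 10 missed the threshold (median -0.66). PLM2, a target of the cell cycle factors SBF and MBF, was at the floor untreated and reached 235 on both MMS arrays, at least 2.42-fold higher. This bound depends on the floor, and over 15 other settings the change ran from 0.16 to 1.54 on the log2 scale. NRM1, a repressor of MBF targets, YOX1 and MSA2, an activator of G1 genes, fell by 1.15 ± 0.18, 2.38 ± 0.42 and 0.92 ± 0.14. Of 11 reductases and dehydrogenases 6 rose, 0 fell and 5 missed the threshold (median 0.84). GRE2, a methylglyoxal reductase, went from 2557 and 2677 to 7970 and 9084 and ADH6, an alcohol dehydrogenase of broad range, from 5674 and 5898 to 9270 and 11572, while the aldose reductase gene GRE3 changed by 0.08 ± 0.25.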
